A study of Homo sapiens with 4 samples.

Results

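MEIS1/2 binding was examined around 10 SOX genes known for their roles in neural stem cells and their descendants: SOX1, SOX2, SOX21, SOX4, SOX11, SOX5, SOX6, SOX8, SOX9 and SOX10. They are 10 of 19812 protein-coding genes in GENCODE 44 on GRCh37 (hg19) and were chosen by name. Each gene was given the binding sites and peaks whose summit, the base with the strongest enrichment, lay in the gene body extended by 250 kb on each side. The extended bodies held 36 of the 5169 reproducible MEIS1/2 sites of the series, which is 0.696% of them.

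The sites came from ChIP-seq in hNSC, untreated human neural stem cells bought from a commercial supplier and grown in serum-free medium, with 2 MEIS ChIP samples and 2 Input samples. Each ChIP combined anti-MEISa (K830) with anti-MEIS1 (K844), so a peak does not tell MEIS1 from MEIS2, and Input, sheared chromatin without immunoprecipitation, entered only through the peak calling. The study's methods describe 2 batches of hNSC handled in parallel, but neither they nor the labels say how the batches differ or that the replicates are separate cultures or donors, so agreement between replicates may be partly technical. No expression was measured in this series, so the label of neural stem cells could not be checked against marker RNA, and peak lists do not hold the number of reads, so sequencing depth is unknown.

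SOX proteins bind DNA through an HMG box that bends the helix, and they are grouped by the similarity of this domain. SOX1 and SOX2 (subgroup B1) keep neural progenitors undifferentiated, whereas SOX21 (B2) is a repressor that opposes them. SOX4 and SOX11 (C) act as activators in neuronal differentiation, SOX5 and SOX6 (D) lack a transactivation domain and work through dimers, and SOX8, SOX9 and SOX10 (E) act in glia and neural crest. MEIS1 and MEIS2 are homeodomain proteins of the TALE class, whose core recognition word is TGACAG.

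The bases at the strongest site of each SOX gene that had one are shown first, because these are the places on which the results turn. A pair of SOX2 peaks that is stronger than any SOX2 site but is missing from the list of reproducible sites is added after the SOX2 site. Each run is the GRCh37 reference, read 5′ to 3′ on the strand given and centred on the TGACAG nearest the summit, with TGACAG, or its complement CTGTCA, in capitals.
SOX2, 41.8 kb downstream (chr3:181471423-181471542, plus strand): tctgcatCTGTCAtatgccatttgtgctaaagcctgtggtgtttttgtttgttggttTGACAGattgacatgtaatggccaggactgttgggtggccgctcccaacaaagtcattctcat
SOX2, 102.6 kb upstream (chr3:181327030-181327149, plus strand): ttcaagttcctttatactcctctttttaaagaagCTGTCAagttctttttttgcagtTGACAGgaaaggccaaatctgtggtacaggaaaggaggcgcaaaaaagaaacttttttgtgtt
SOX21, 5.7 kb downstream (chr13:95359056-95359175, minus strand): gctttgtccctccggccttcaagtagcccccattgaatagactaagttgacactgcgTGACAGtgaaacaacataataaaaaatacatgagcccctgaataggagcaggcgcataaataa
SOX1, 137.8 kb downstream (chr13:112859181-112859300, plus strand): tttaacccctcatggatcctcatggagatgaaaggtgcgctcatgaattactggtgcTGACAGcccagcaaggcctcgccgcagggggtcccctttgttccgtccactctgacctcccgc
SOX4, 178.9 kb downstream (chr6:21772846-21772965, minus strand): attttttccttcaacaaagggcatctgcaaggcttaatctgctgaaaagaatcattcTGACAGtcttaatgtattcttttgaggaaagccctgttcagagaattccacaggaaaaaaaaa
SOX5, 406.8 kb upstream (chr12:24509361-24509480, plus strand): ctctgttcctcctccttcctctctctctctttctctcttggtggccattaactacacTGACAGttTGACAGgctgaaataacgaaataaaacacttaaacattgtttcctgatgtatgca
SOX6, intron 6 (chr11:16191642-16191761, minus strand): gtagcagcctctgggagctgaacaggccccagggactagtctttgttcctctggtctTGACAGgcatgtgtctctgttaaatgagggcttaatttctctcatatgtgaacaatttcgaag
SOX8, 16 kb downstream (chr16:1047879-1047998, minus strand): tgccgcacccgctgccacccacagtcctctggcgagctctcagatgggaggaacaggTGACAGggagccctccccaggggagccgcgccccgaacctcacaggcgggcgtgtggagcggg

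At 7 of these 8 places the copy nearest the summit lay from 1 to 11 bp from it, and at SOX8 the nearest lay 120 bp away. The places were picked for their strength, and no like count is given for equally strong sites elsewhere. In 500 bp windows, TGACAG was present at 25 of the 36 SOX sites (69.4%), against 58.3% of all sites. The SOX5 run held TGACAG in a pair of copies on the same strand, and the SOX2 runs held a copy on each strand. The runs at SOX4 (acaaagg, to the left of TGACAG) and at SOX1 (its complement cctttgt, to the right) each also held a SOX consensus word.

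The number of sites per gene was uneven. SOX5 had 14 sites, SOX6 had 7, SOX2 had 5, SOX21 had 4, SOX1 had 3, SOX8 had 2 and SOX4 had 1, while SOX11, SOX9 and SOX10 had 0. At least 1 site was found at 7 of 10 SOX genes, against 47.9% of all protein-coding genes treated in the same way. At least 3 sites were found at 5 of 10, against 8.8% of protein-coding genes. Over the 6.86 Mb of extended bodies the density was 5.25 sites per Mb, and over the genome it was 1.70 per Mb. The genome value takes the full length of the chromosomes, 3036 Mb, and no density is given for the windows of other genes. No site was counted for more than 1 of the SOX genes.

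**Figure D1:**
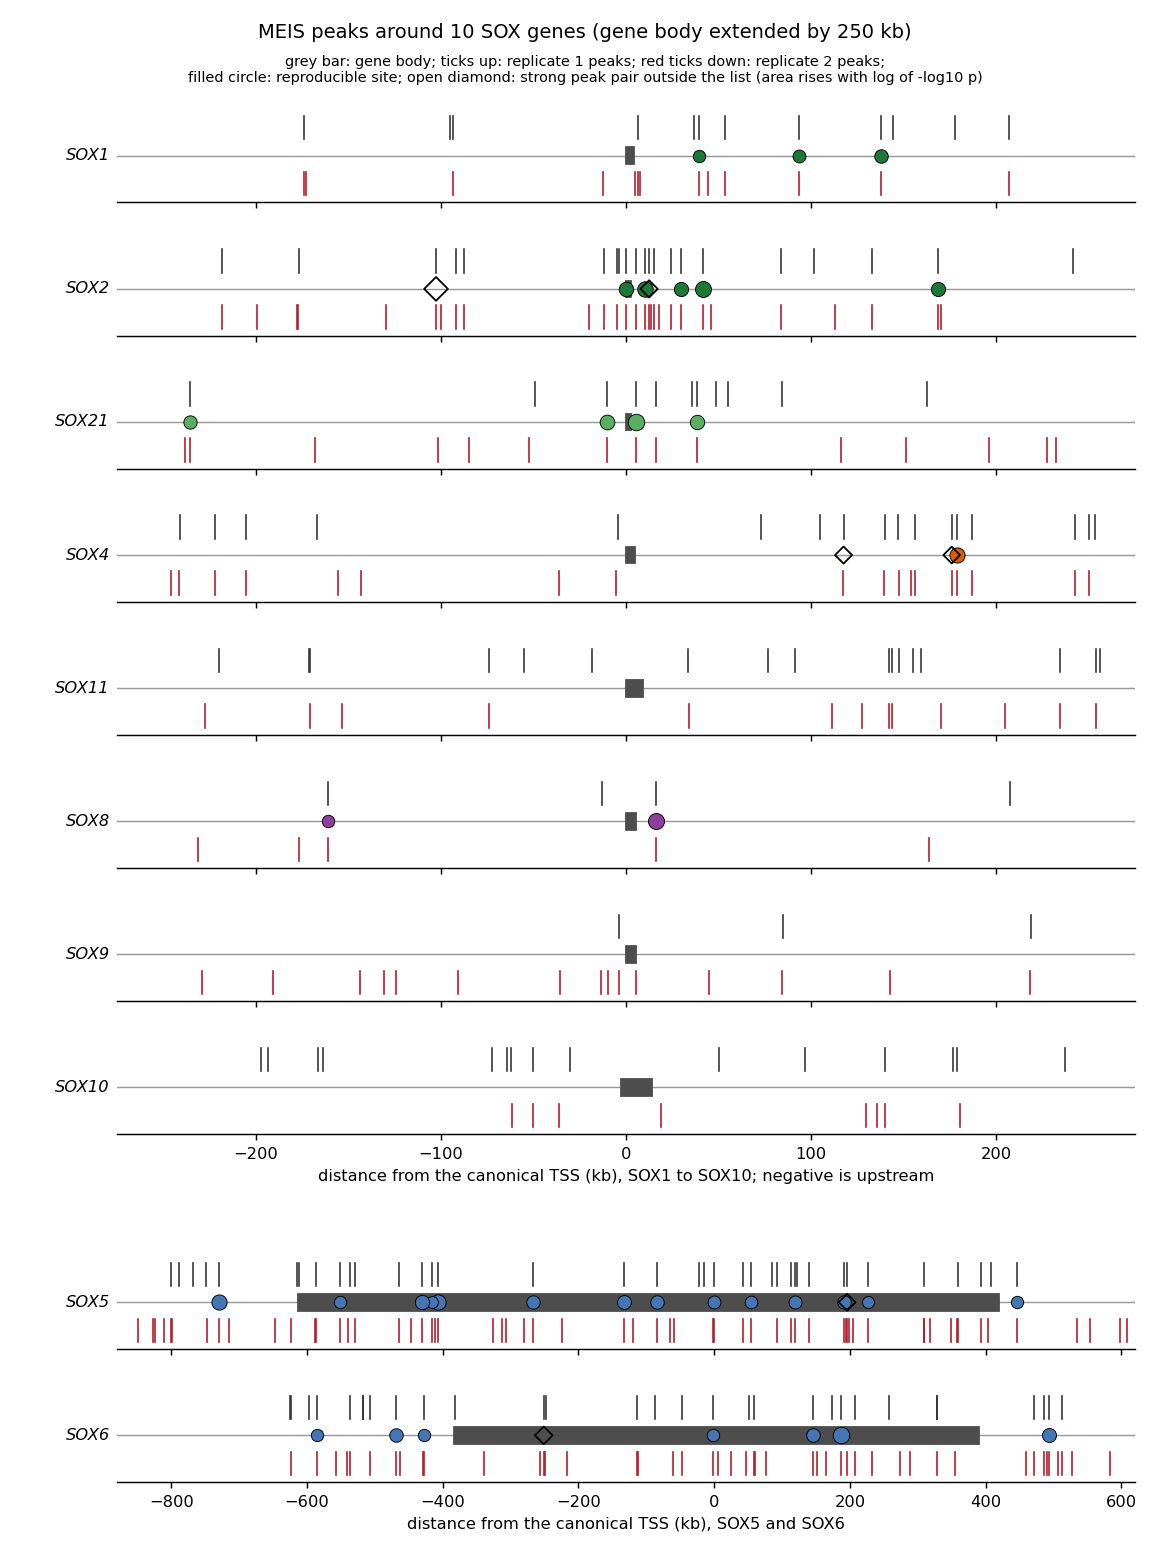
Position of MEIS1/2 peaks around each of the 10 SOX genes, with the distance from the canonical TSS in kb on the x axis (negative is upstream in the direction of the gene) and one line per gene. Grey bars are gene bodies, ticks above the line are replicate 1 peaks, red ticks below it are replicate 2 peaks, filled circles are the 36 reproducible sites, and open diamonds are the 6 pairs of peaks outside the list whose weaker member reached a −log10 p of 12.5, so that SOX11, SOX9 and SOX10 show ticks without circles.

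Because a long gene collects more sites, each count was ranked among 200 protein-coding genes of like body length, with ties counted at their midpoint. The percentile was 99.8 for SOX5, 99.5 for SOX2, 99.0 for SOX21, 98.0 for SOX1, 95 for SOX6, 91.5 for SOX8 and 73.8 for SOX4. The genes without a site stood at 30.2 (SOX9), 29.8 (SOX11) and 25.0 (SOX10). The median over the 10 genes was 93.2, and the median of the same percentile over all protein-coding genes was 33.9, since the commonest count is 0. For SOX5 and SOX2, 1 of 200 length-matched genes (0.5%) had as many sites or more. For SOX6 this was true of 12 genes (6%) and for SOX8 of 26 (13%). The match in length was loose for the long genes. The comparison genes ran from 598 to 1464 kb for SOX5 (1033 kb) and from 545 to 992 kb for SOX6 (773.1 kb). These ranks describe one set of libraries and carry no test.

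**Figure D2:**
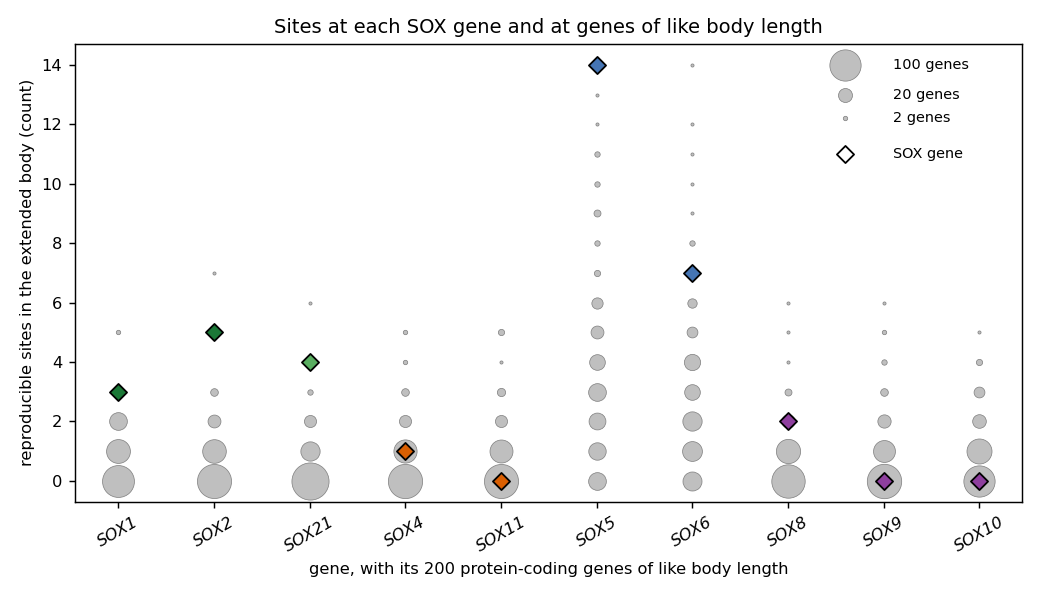
Number of reproducible MEIS1/2 sites in the extended body (y axis, count) for each SOX gene (diamond, coloured by subgroup) and for its 200 comparison genes of like body length (grey circles, with area proportional to the number of genes at that count). SOX2, SOX21 and SOX1 lie above the circles that hold nearly all of their comparison genes. SOX5 is level with the highest of its comparison genes at 14, and SOX11, SOX9 and SOX10 lie on the large circle at 0.

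Most sites lay far from the canonical TSS. The median distance from the canonical TSS was 153 kb, with 22 sites beyond 100 kb, 11 between 5 and 100 kb and 3 within 5 kb. Those 3 belonged to SOX2, SOX5 and SOX6, so 3 of 10 SOX genes had a site within 5 kb of the TSS, against 2.42% of protein-coding genes. The same 3 genes had a site inside the gene body, against 8.45% of protein-coding genes, a share that takes no account of body length. Among length-matched genes, the count in the body stood at a percentile of 100.0 for SOX2, 99.5 for SOX5 and 79.5 for SOX6. The median over the 10 SOX genes was 49.8. At the 8 genes with bodies under 20 kb, 12 of the 15 sites lay downstream and 3 upstream. Since other genes lie in some of these windows, the nearest canonical TSS was taken for each site, and it was that of the SOX gene for 30 of 36. Both measures leave out other transcript starts. This matters at SOX5 and SOX6, whose canonical TSS lies far inside the body and which held 21 of the 36 sites. The SOX5 site 406.8 kb from the canonical TSS lay 0.944 kb from another SOX5 start. Of the 6 sites nearest to another gene, some lay nearer to such a start.

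The bases at the sites within 5 kb of a TSS are given in the same way. The run at SOX2 ends at the base before its TSS. The run at SOX6, where TGACAG was not found, is centred on the summit.
SOX2 start (chr3:181429637-181429712, plus strand): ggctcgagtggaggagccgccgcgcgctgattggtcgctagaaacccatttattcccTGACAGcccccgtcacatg
SOX5 start (chr12:24103209-24103328, plus strand): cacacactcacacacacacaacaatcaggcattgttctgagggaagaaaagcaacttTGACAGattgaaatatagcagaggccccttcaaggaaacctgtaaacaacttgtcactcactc
SOX6 start (chr11:16379481-16379600, plus strand): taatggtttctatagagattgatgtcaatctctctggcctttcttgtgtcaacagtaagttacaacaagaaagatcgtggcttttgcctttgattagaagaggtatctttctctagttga

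SOX2 (ENSG00000181449, chromosome 3 from 181429713 to 181432224, plus strand) encodes a factor used throughout the field as a marker of neural stem cells. One site, from 181427587 to 181430103, covered its start. The summit lay 14 bp inside the 5′ UTR of its single exon, with a −log10 p of 100.0 and 91.7 in replicates 1 and 2 and a fold enrichment over input of 13.9 and 22.4 (values of the replicates are given in this order throughout). Its TGACAG lay 30 bp from the summit. This was the strongest of the 3 sites near a start in both replicates.

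The other 4 SOX2 sites lay downstream. That at 41.8 kb reached a −log10 p of 283.7 and 300.1, with a fold of 24.9 and 43.1, and ranked 199 among all sites by the weaker replicate. That at 10.3 kb reached 234.1 and 195.9 and held 3 copies of TGACAG. The sites at 29.7 kb (69.5 and 70.0) and 168.6 kb (67.6 and 101.6) were weaker in each replicate than the site at 10.3 kb. The start site and the next 3 lie within SOX2-OT, the long non-coding RNA gene that spans SOX2, so the annotation does not tell which transcript such a site would belong to. No other protein-coding TSS lies in the SOX2 window.

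The peak with the highest −log10 p at SOX2 was not among these sites. In replicate 1 it ran from 181326529 to 181330293, 102.6 kb upstream, with a −log10 p of 666.8 and a fold of 41.6. In replicate 2 it ran from 181326570 to 181329003, with 620.4 and 69.7, and the summits lay 6 bp apart. Its TGACAG lay 1 bp from the summit. The list of reproducible sites does not hold it, although its weaker value would have given rank 69. The replicate 1 peak overlapped 2 replicate 2 peaks. Across the genome, 1928 pairs of overlapping peaks had a −log10 p of at least 40 in both replicates, and 29 of them (1.50%) were outside the list. In 29 of these 29 pairs (100%) a peak overlapped more than 1 peak of the other replicate, whereas this was so for 17 of the 1899 listed pairs (0.895%). How the list was made from overlapping peaks was not tested.

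SOX1 (ENSG00000182968, chromosome 13 from 112721463 to 112726020, plus strand), the other B1 gene, had 3 sites, all downstream. They were found at 39.6 kb (18.4 in replicate 1 and 22.2 in replicate 2), 93.6 kb (42.8 and 26.7) and 137.8 kb (47.5 and 41.2), and the last ranked 1834. The site at 39.6 kb lies in the non-coding gene SOX1-OT and held no TGACAG within 250 bp of its summit. Within 5 kb of the SOX1 TSS there was 1 peak, in replicate 2 only, with a −log10 p of 4.0. SOX1 and SOX2 thus had 8 sites in windows of nearly the same length, and SOX2 held the stronger ones, with a −log10 p of at least 67.6 in both replicates at each of its 5 sites and at most 47.5 at those of SOX1.

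SOX21 (ENSG00000125285, chromosome 13 from 95361876 to 95364799, minus strand), the B2 gene, carried the strongest site of the short SOX genes. It lay 5.7 kb downstream of the TSS, beyond the end of the gene and inside SOX21-AS1, with a −log10 p of 443.3 and 639.6, a fold of 29.4 and 81.5, and rank 114. TGACAG lay 5 bp from its summit. Sites at 10.3 kb upstream (120.8 and 100.9), 38.5 kb downstream (79.7 and 91.4) and 235.7 kb upstream (55.2 and 35.2) were lower in both replicates. SOX21 was the nearest protein-coding TSS for each of the 4, although the TSS of DCT, TGDS and GPR180 also lie in the window.

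The C genes had many peaks and few sites. SOX4 (ENSG00000124766, chromosome 6 from 21593982 to 21598850, plus strand) had 1 site, 178.9 kb downstream in the non-coding gene CASC15, with a −log10 p of 144.8 and 161.2 and rank 468. A shared peak in replicate 1 lay 4.56 kb upstream of its TSS with a −log10 p of 7.8. The extended body held 17 peaks in replicate 1 and 18 in replicate 2, at percentiles of 98.8 and 95.2 among length-matched genes, and 13 in each replicate overlapped a peak of the other.

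SOX11 (ENSG00000176887, chromosome 2 from 5832516 to 5841517, plus strand) had 17 and 13 peaks, of which 7 in each replicate were shared, and 0 sites. Its highest −log10 p was 13.8 in replicate 1, at 142.2 kb downstream, and 14.1 in replicate 2, at 73.9 kb upstream. The matching peak in the other replicate had 11.6 and 5.7. The number of replicate 1 peaks at SOX11 stood at a percentile of 98.2 and that of replicate 2 peaks at 78.5.

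The picture at the C genes changed beyond 250 kb. Between 250 and 500 kb from the body, SOX11 had 7 sites, and SOX11 was the nearest protein-coding TSS for each of them. The strongest, 449.3 kb upstream, had a −log10 p of 104.1 and 115.7. SOX4 also had 7 in this range, 4 of them nearest to SOX4, and the strongest lay 356.0 kb downstream (125.1 and 178.8), nearest to PRL. SOX21 had 6, the strongest at 344.0 kb upstream (395.9 and 542.1) and nearest to ABCC4. SOX2 had 2, SOX1, SOX6, SOX8, SOX9 and SOX10 had 1 each, and SOX5 had 0. With bodies extended by 500 kb, the percentile among length-matched genes went from 29.8 to 99.5 for SOX11 and from 73.8 to 100.0 for SOX4. It also rose for SOX9 (from 30.2 to 51.5) and SOX10 (from 25.0 to 44), but only to near the middle. The ranks of the C genes and those of SOX9 and SOX10 thus depended on the extension.

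**Figure D3:**
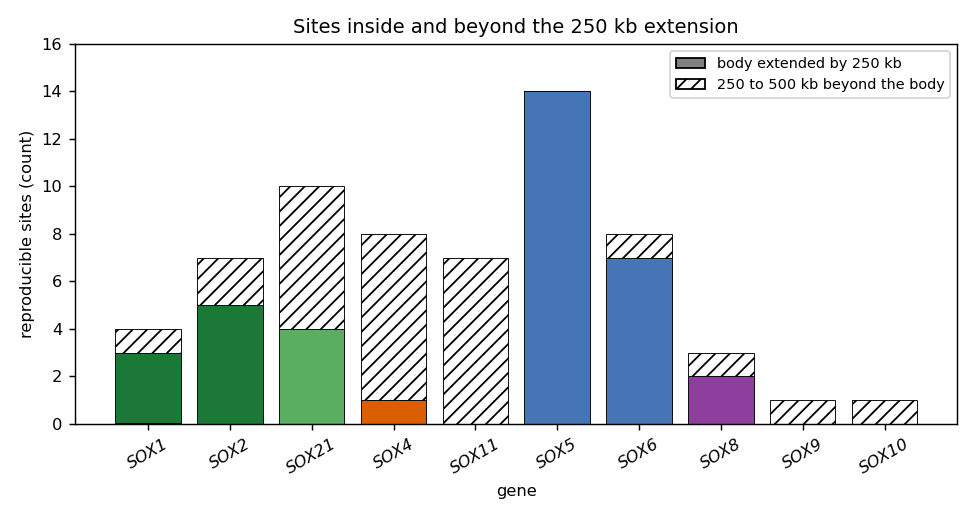
Number of reproducible MEIS1/2 sites (y axis, count) at each SOX gene (x axis) inside the body extended by 250 kb (solid, coloured by subgroup) and between 250 and 500 kb beyond the body (hatched). SOX11 had 0 inside and 7 beyond, SOX4 had 1 and 7, and SOX5 had 14 and 0.

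SOX5 and SOX6, the D genes, are long, and together they held 21 of the 36 sites. SOX5 (ENSG00000134532, chromosome 12 from 23682438 to 24715478, minus strand) had 12 of its 14 sites within the body. Of these, 3 lay in introns of the canonical transcript (intron 3 for 2 of them and intron 6), 1 in coding exon 2, and 8 upstream of the canonical TSS in the part of the body that only longer transcripts span. The strongest by the weaker replicate, from 24508918, lay 406.8 kb upstream of the canonical TSS and 0.944 kb from the start of another SOX5 transcript. Its −log10 p was 202.9 and 161.7 and its rank 397. The next, 729.5 kb upstream and outside the body, had 155.7 and 176.0. Its nearest canonical TSS was that of BCAT1 at 269.9 kb, but the start of another SOX5 transcript lay nearer, at 117 kb. The site near the canonical TSS, 0.7 kb upstream, was weak beside these, with 26.4 and 29.1, and TGACAG lay 48 bp from its summit.

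The replicates differed more at some SOX5 sites than elsewhere. The site 84.8 kb upstream had a −log10 p of 39.7 in replicate 1 but 206.4 in replicate 2, a ratio of 5.20, which was reached by 12 of the 5169 sites (0.232%). The site 132.2 kb upstream went the other way, from 142.5 to 52.9 (ratio 0.371). Neither held TGACAG in its window. The strength of both depends on the replicate, and the cause was not tested.

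SOX6 (ENSG00000110693, chromosome 11 from 15987995 to 16761138, minus strand) held the site with the highest rank of all 36, in intron 6. It had a −log10 p of 496.2 and 503.3, its fold was 37.3 and 59.3, and its rank 101, and the summits of the replicates lay 2 bp apart. A site in intron 4 had 41.4 and 62.9. The site 1.45 kb upstream of the canonical TSS had 25.0 and 18.6 and no TGACAG in its window. Beyond the end of the gene, 493.0 kb from the TSS, a further site had 60.4 and 100.5 and 3 copies of TGACAG. The remaining 3 lay in introns of the neighbouring gene PLEKHA7, and their nearest canonical TSS were those of C11orf58 for 2 and PLEKHA7 for 1. The 2 lay 45.7 and 86.8 kb from the C11orf58 TSS, but 44.8 and 85.9 kb from the start of another SOX6 transcript. The third lay 72.9 kb from the PLEKHA7 TSS and 202 kb from any SOX6 start.

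The E genes were uneven. SOX8 (ENSG00000005513, chromosome 16 from 1031770 to 1036979, plus strand) had 1 strong site, 16 kb downstream of its TSS, with a −log10 p of 324.7 and 311.8, a fold of 30.0 and 54.1 and rank 174. SOX8 was its nearest canonical TSS, in a window with 12 others. Its second site, 160.8 kb upstream (19.6 and 35.8), lay 20.2 kb from the TSS of GNG13. The extended body held 4 and 5 peaks, at percentiles of 29.8 and 27.2, so SOX8 had few peaks in either replicate.

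SOX9 (ENSG00000125398, chromosome 17 from 70117161 to 70122557, plus strand), a factor of gliogenesis, had 3 peaks in replicate 1 and 15 in replicate 2. The strongest lay about 3.77 kb upstream of the TSS, with a −log10 p of 5.2 and 11.1. SOX10 (ENSG00000100146, chromosome 22 from 38366693 to 38383429, minus strand), which marks oligodendrocyte lineage and neural crest, had 15 and 8 peaks, of which 3 in each replicate were shared. Its strongest, 50.2 kb upstream, had 9.7 and 6.9 and lay nearer to the TSS of PICK1. For SOX9 the replicates thus disagreed on the number of peaks, at percentiles of 23.2 and 88.0, and for SOX10 they did so in the other direction, at 90.8 and 42.0.

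A replicate 1 peak shared with replicate 2 was found within 5 kb of the canonical TSS at 5 of 10 SOX genes (SOX2, SOX4, SOX5, SOX6 and SOX9), against 13.9% of protein-coding genes. At SOX4 and SOX9 these peaks had a −log10 p of 7.8 and 5.2 in replicate 1, under the 12.5 of the weakest listed site. A further 9 SOX genes outside the named group were counted over bodies extended by 250 kb. Of these, 3 had a site, against 47.9% of protein-coding genes, with 4 sites in all. SOX13, the remaining D gene, had 2 of these in its body, and SOX18 and SOX30 had 1 each.

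Sites at SOX genes were somewhat stronger than the list as a whole. The median −log10 p, by the weaker replicate, was 41.3 with a range of 13.6 to 496, and over all sites it was 29.3. Among the strongest 10% of all sites were 8 of the 36 (22.2%), and among the strongest 50% were 23 (63.9%). The median fold was 7.82 in replicate 1 and 12.9 in replicate 2, against 6.38 and 11.5 over all sites. The −log10 p of the replicates lay within 2-fold of each other at 32 of 36 sites (88.9%), against 86.1% of all sites, and the 4 others were all at SOX5. Fold enrichment was higher in replicate 2 at 35 of the 36 sites and at 97.4% of all sites, so it was not compared between replicates.

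**Figure D4:**
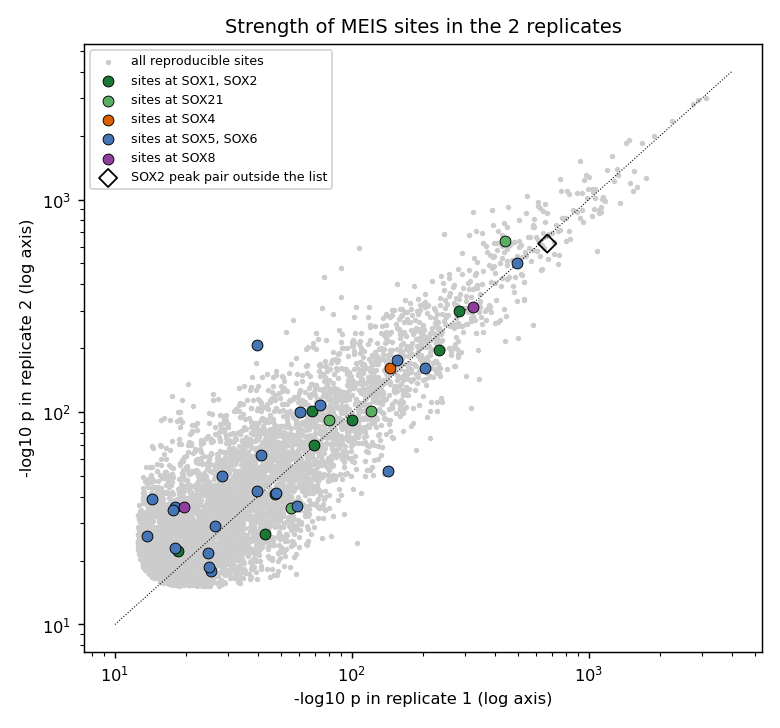
Strength of each reproducible site as −log10 p in replicate 1 (x axis, log scale) and replicate 2 (y axis, log scale), for all 5169 sites (grey) and the 36 at SOX genes (coloured by subgroup), with the dotted line marking equal values. The SOX2 pair outside the list (open diamond, 666.8 and 620.4) lies to the right of all coloured points, and 1 SOX5 site lies far above the line at 39.7 and 206.4.

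The extended bodies held 168 peaks in replicate 1 and 221 in replicate 2. A peak of the other replicate overlapped 107 (63.7%) and 108 (48.9%) of them, and over all peaks the shares were 49.0% and 38.0%. In replicate 1, 3 of 3 peaks at SOX9, 19 of 21 at SOX2 and 3 of 15 at SOX10 were shared. In replicate 2 the share was 71.4% at SOX2 and 72.2% at SOX4, and 37.5% at SOX10, 33.3% at SOX21 and 20% at SOX9.

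The word TGACAG was searched on both strands in the 500 bp centred on each summit. It was present at 25 of 36 SOX sites (69.4%, Wilson 95% interval 53.1 to 82.0) and at 58.3% of all sites, so the interval includes the share in the list. Of the 35 occurrences at SOX sites, 22 (62.9%) lay within 50 bp of the summit, against 55.1% at all sites. A composite word for a PBX-MEIS pair, which contains TGACAG, was found at 1 SOX site (2.78%), that in intron 24 of PLEKHA7 at SOX6, and at 4.93% of all sites. The homeodomain word TAATT was present at 29 (80.6%, 65.0 to 90.2) and 70.2%, and the TEAD words ACATTCC or GCATTCC at 7 (19.4%, 9.75 to 35) and 25.8%.

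SOX consensus words, ACAATGG or ACAAAGG, were found in the windows of 17 of 36 SOX sites (47.2%, 32 to 63) and of 29.6% of all sites. In windows of 200 bp the shares were 22.2% (11.7 to 38.1) and 17.4%, where the interval includes the share in the list. TGACAG and a SOX word occurred together at 10 sites (27.8%, 15.8 to 44) and at 16.7% of all sites. The intervals treat sites as independent and cover their number alone, and a word is not evidence that a SOX protein was bound.

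**Figure D5:**
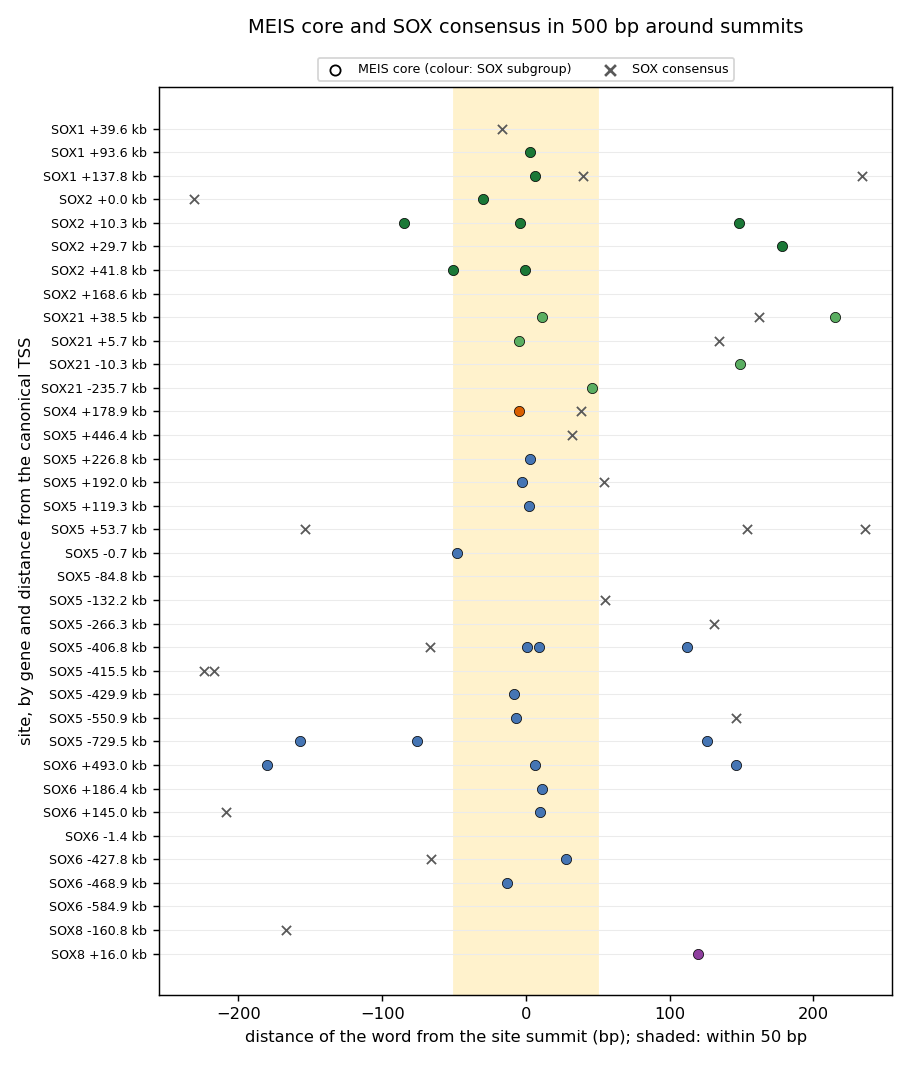
Position of TGACAG (circles, coloured by SOX subgroup) and of the SOX consensus words (crosses) relative to the summit (x axis, bp) in the 500 bp window of each of the 36 sites (y axis, by gene and distance from the canonical TSS), with the 50 bp on each side of the summit shaded. TGACAG occurrences gather in the shaded band (22 of 35), and the crosses spread over the window.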

How the data were processed

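The labels give 2 MEIS ChIP and 2 Input samples, grouped by title. Per the labels and the study's methods, 36 bp paired reads were trimmed with cutadapt 1.16, mapped to GRCh37 with Bowtie2 2.3.0, filtered on mapping quality with SAMtools 1.2 and cleared of duplicates with Picard 2.15.0, so sites in repeated sequence can be missed. The authors called peaks per replicate against input with MACS2 (version not given in the sources used here) at a p-value of 0.01 and took reproducible sites with IDR 2.0.3, the irreproducible discovery rate.

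The deposited peak lists give fold enrichment over input (a linear ratio) and −log10 p. The deposited site list gives a scaled IDR score, the −log10 of the IDR and −log10 p, together with 8 columns of per-replicate values that were not used. For each site, the strongest overlapping peak of each replicate (at least 1 bp) gave its values, and a site was ranked by its −log10 p in the list. Peaks outside chromosomes 1 to 22 and X (1 in replicate 1 and 4 in replicate 2) were left out.

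GENCODE 44 on GRCh37 gave gene bodies and canonical transcription start sites (TSS), and scripts ran in Python 3.11.15 with numpy 2.4.6, scipy 1.17.1 and matplotlib 3.10.9. Counting, ranks and word search were tested on simulated data. Depth is unknown, and Wilson 95% intervals cover the number of sites alone. Since only untreated cells were profiled, all results are descriptions without a test. The SOX genes, windows and words were chosen with earlier results of these data known. All 10 genes were described, with their strongest site, every site within 5 kb of the canonical TSS and those in the body, and other SOX genes were counted. Alternatives were other extensions, thresholds, replicates, comparison genes and windows.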

Additional observations from a re-analysis of the deposited data

How the results depend on the processing

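No paired analysis was possible because every result describes sites in a single group and none comes from a test. The scaled IDR score of 1000 and the addition of peak pairs outside the list were chosen after seeing the data. Gene bodies extended by 500 kb gave 63 sites, 287 and 366 peaks in replicates 1 and 2 and a median percentile of 96.2. A site was then found at 10 of 10 genes, with 1 each at SOX9 and SOX10. The share of all protein-coding genes with a site was not computed at 500 kb, so the 10 of 10 has no comparison. Extension by 100 kb gave 102 and 131 peaks and a percentile of 90. Without extension there were 16 sites at 3 genes, 46 and 72 peaks and a percentile of 49.8. A −log10 p of at least 5 left 100 and 133 peaks. An IDR of 0.001 or less left 26 sites, with a percentile of 89.1 and TGACAG at 84.6%, and a score of 1000 gave TGACAG at 71.9%. No share of all sites is given at these limits, so these 2 shares cannot be set against the 58.3% of the whole list. All protein-coding genes without matching gave a percentile of 89.4. In 200 bp TGACAG was at 61.1% (44.9 to 75.2), against 46.4% of all sites. It was at 83.3% over whole sites, which are wider windows by construction and for which no share of all sites is given. Leaving out one replicate gave 36 to 40 sites, 7 genes, a percentile of 92.2 to 95.8 and TGACAG at 70.0% to 72.2%. Without replicate 1, SOX4 had 2 sites in place of 1, at a percentile of 94.2 in place of 73.8. Counting instead the sites with a SOX gene as the nearest canonical TSS gave 47 sites at 9 genes. By this count SOX2 had 8, SOX11 7, SOX4 5, SOX6 4, SOX9 2 and SOX8 1, and the counts of SOX1, SOX21, SOX5 and SOX10 changed by less than 1.5-fold or not at all. At an IDR of 0.001 or less SOX5 had 9 sites, SOX6 4 and SOX8 1. A count was taken as unmoved within 1.5-fold, and a percentile or share within the SD of the 2 values that each leave out one replicate (2.47 and 1.57 points), which is a much tighter limit. By these limits 20 of the 42 alternative values for the main results and 57 of the 80 site counts of single genes were unmoved. Beyond those settings whose construction changes the window or the list, the cause was not tested. The unknown depth limits any comparison of peak numbers between replicates.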

Other observations

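Beside the SOX2 peak 102.6 kb upstream, 5 further pairs of overlapping peaks at SOX genes reached the −log10 p of the weakest listed site, 12.5, in both replicates without being in the list. At SOX2, a pair 12.5 kb downstream had 16.7 in replicate 1 and 30.8 in replicate 2. At SOX6, a pair 251.1 kb upstream of the canonical TSS, inside the body, had 27.8 and 20.9. At SOX5, a pair 195.9 kb downstream of the TSS had 13.8 and 17.2. SOX4 had 2, at 117.6 kb downstream (15.1 and 16.1) and 176.0 kb downstream (12.6 and 13). With the 6 pairs added, the SOX genes had 42 places in place of 36. Genome-wide, 725 of 5908 pairs at this level (12.3%) were outside the list, and in 76 of the 725 (10.5%) a peak overlapped more than 1 peak of the other replicate. At SOX4, a replicate 2 peak 221.8 kb upstream with a −log10 p of 42.1 was matched in replicate 1 by one with 7.6 and was not in the list.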
